A study of Caenorhabditis elegans with 2 samples.

Results

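Across the *Caenorhabditis elegans* genome, 730 of the 4250 binding summits of the Hox protein LIN-39 lay in 201 chains of 3 or more summits, each at most 3000 bp from the next. A summit is the base at which a peak of a chromatin immunoprecipitation and sequencing (ChIP-seq) experiment is highest. The chains were chosen by the positions of the peaks on the authors' optimal list, which is the list thresholded for reproducibility between replicates. Not every summit on it has a counterpart in each replicate's own list. Chained summits made up 17.2% of the list. Another 976 summits formed 488 pairs, and the other 2544 stood alone, with no neighbour within 3000 bp. The sizes and the spacing of the chains follow from that rule and are descriptions. No comparison of chained with single summits carries a test.

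The data came from whole, mixed-sex larvae of the L3 stage of strain OP18, whose genotype is unc-119(ed3) III; wgIs18. wgIs18 is the insertion that carries *lin-39* fused to eGFP, so every value describes tagged protein made from a transgene. The study had 1 group of 2 biological replicates, numbered here as in the labels, and each replicate has its own list of peaks. The lists of the replicates share the control alignments they were called against. Whole larvae were used, so the cells in which a summit was bound, and whether the summits of a chain were bound in the same cells, cannot be told apart.

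The Hox protein LIN-39 patterns the midbody of the worm. It keeps vulval precursor cells from fusing with the hypodermis, and it acts in migrating neuroblasts and in ventral cord motor neurons. Hox proteins bind short AT-rich sequences, often together with a PBX-family partner, such as CEH-20 in the worm. The pair recognises a composite site whose letters are TGATNNAT. Regulatory genes of animals often have several separate binding elements spread over their introns and upstream sequence.

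The sequences below are shown because they are motif-bearing summits of the chains with the most summits or the most motif-bearing summits. Each is a summit with 50 bases to either side, taken on the plus strand from the RefSeq genome sequence (WBcel235, the same assembly as ce11). Capitals mark TGATNNAT, which reads ATNNATCA where the site is on the minus strand.

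pqn-41, intron, chrIII:1923709-1923809: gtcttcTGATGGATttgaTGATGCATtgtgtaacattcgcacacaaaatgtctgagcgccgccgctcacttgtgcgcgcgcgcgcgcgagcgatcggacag
T28B11.1, intron, chrV:10721993-10722093: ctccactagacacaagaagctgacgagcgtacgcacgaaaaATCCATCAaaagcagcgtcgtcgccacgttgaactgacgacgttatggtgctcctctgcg
lin-14, upstream, chrX:11463145-11463245: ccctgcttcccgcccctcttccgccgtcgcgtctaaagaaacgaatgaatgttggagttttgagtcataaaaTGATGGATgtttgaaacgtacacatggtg
mbl-1, intron, chrX:16999725-16999825: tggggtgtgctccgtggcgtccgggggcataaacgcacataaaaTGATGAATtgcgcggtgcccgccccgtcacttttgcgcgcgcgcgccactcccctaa
sftd-3, promoter, chrII:8961607-8961707: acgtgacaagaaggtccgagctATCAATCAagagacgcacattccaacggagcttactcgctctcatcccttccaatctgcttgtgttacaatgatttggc
W06H8.6, intron, chrV:6225756-6225856: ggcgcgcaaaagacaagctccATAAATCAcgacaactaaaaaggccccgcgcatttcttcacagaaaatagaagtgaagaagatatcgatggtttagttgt

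Most chains were short. Of the 201 chains, 130 had 3 summits, 40 had 4, 18 had 5, 7 had 6 and 3 had 7, and single chains had 8, 9 and 10. The 31 chains of 5 or more held 180 summits, or 24.7% of the chained ones. From the first to the last summit a chain ran over 895 to 14885 bp, with a median of 3450 bp. All chains together covered 789596 bp, which is 0.787% of the genome.

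Within chains, 529 gaps between neighbours had a median of 1394 bp, with an interquartile range of 927 to 2044 bp. The 488 gaps of pairs had a median of 1638 bp. Over all 4244 neighbours on the same chromosome the median was 11104 bp. Of the gaps within chains 132 lay from 1000 to 1500 bp, the fullest step of 500 bp, closely followed by 127 from 500 to 1000 bp. Another 28 gaps were under 500 bp. Of these, 16 were shorter than the median peak width of 316 bp, and library fragments were 150 to 350 bp long, so whether such neighbours are separate sites cannot be told apart. Keeping only the stronger of any summits less than 350 bp apart left 197 chains with 706 summits.

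**Figure D1:**
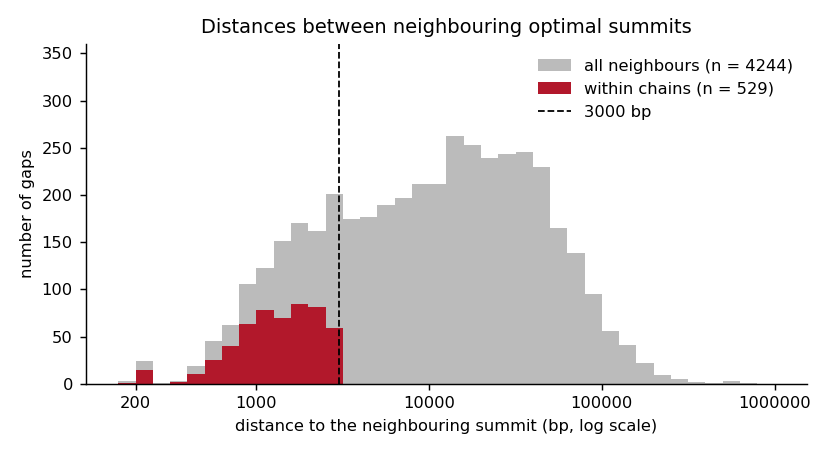
Histogram of the distance to the neighbouring summit (x axis, bp, log scale) against the number of gaps (y axis), for all 4244 neighbours in grey and for the 529 gaps within chains in red. The dashed line is the chaining distance of 3000 bp, which falls inside a broad slope of the grey distribution and not in a trough.

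The chaining distance did not fall at a natural break. Just inside it, a chain at *gpb-1*, which encodes a G protein beta subunit, was held together by a gap of 2958 bp. The next widest gaps were 2955 bp, between F10C2.3 and *pkc-1*, and 2953 bp, between *gdi-1* and *nuo-3*. Just outside it, a summit of *lin-14* lay 3004 bp from a chain of 4 in the same gene. A pair at *nduf-7* and a pair at *dnj-20* each missed a further summit by a gap of 3010 bp. Chains on either side of the distance therefore differed by small steps.

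The tightest chain had 3 summits in 895 bp on chromosome IV, at the starts of *mig-38* and F40F11.3, with a median gap of 447.5 bp. *spe-36* lay 1356 bp from its first summit. The chain next to it in tightness, at *pdtf-1* and T26A8.4, had a median gap of 566 bp. A chain of 4 intergenic summits on chromosome III, 3352 bp from *arrd-17*, followed with 616 bp. The widest were chains at *cam-1*, at 2910 bp, at *pkc-1*, which encodes a protein kinase C, at 2841 bp, and at C46C2.7, at 2834 bp. The first 2 of these 3 tight chains sat at the starts of adjoining genes and the other between genes. Tight spacing also occurred inside long genes, as in the *ncl-1* chain with a median gap of 777 bp.

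Genes were given a window of their body plus 2000 bp upstream. At least 1 chained summit lay in the windows of 316 protein-coding genes, which is 1.58% of the 19973. At least 3 summits of the same chain lay in the windows of 106 genes, or 0.531%. Among chains, 107 of 201, or 53.2%, had at least 3 summits in a single gene's window, and in 86 the window held the whole chain. With the gene body alone, without the upstream part, the share was 28.4%. In 77 chains no gene had 3 summits, and 17 chains touched no protein-coding window at all.

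The 106 host genes were long. Their median length was 9575 bp, against 2027 bp for all protein-coding genes and 3052.5 bp for the 3842 genes with any optimal summit in the window. Of the 1998 genes in the longest length decile, which starts at 6772 bp, 68 were hosts, or 3.40%. The shortest decile held 0, and no decile from the shortest to the middle held more than 4. A long window has more room for summits, and length was not separated from any other property of these genes.

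**Figure D2:**
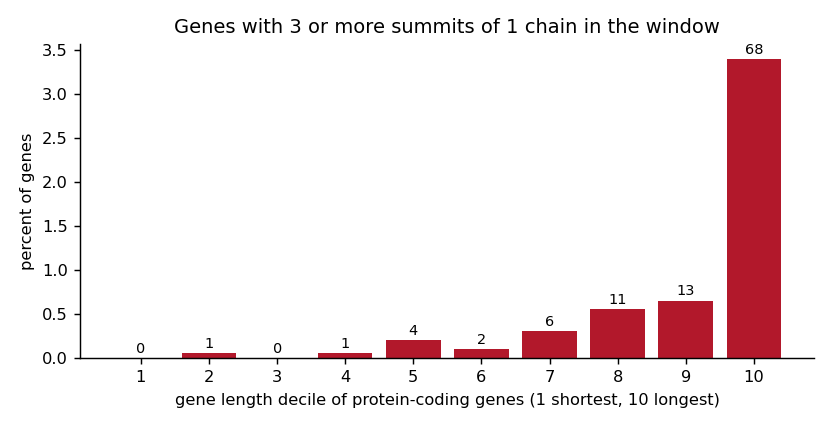
Percent of protein-coding genes with 3 or more summits of the same chain in their window (y axis) by decile of gene length (x axis, from shortest to longest), with the number of such genes above each bar. The longest decile reaches 3.40% with 68 genes, and the other bars are at or below 0.651%.

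Short host genes also occurred. *mdl-1*, which encodes a Mad-like basic helix-loop-helix protein, is 1549 bp long and had 3 summits of a chain of 8 in its window. Of 292 placements of a chained summit in the body of its host, 22.3% lay in the first of 4 equal parts of the gene, 39.0% in the next, 29.8% in the one after and 8.90% in the last. A summit in overlapping host genes was counted for each.

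The longest chain, of 10 summits over 11411 bp on chromosome III, lay at *ncl-1*, whose B-box protein limits the size of the nucleolus and the production of ribosomal RNA. All 10 summits were in the window of *ncl-1*, a gene of 18377 bp at chrIII:7719729-7738105. Of these, 8 were in introns, 1 was upstream and 1 was at the start of ZK112.4, a gene inside the same stretch. In order along the chromosome their optimal signals were 41.3, 85.8, 44.2, 40.6, 36.2, 42.3, 60.1, 39.9, 54.1 and 80.4. The signals in replicate 1 ran from 10.3 to 56.8 and those in replicate 2 from 15.3 to 44.1. The peak caller's signal has a scale of its own in each list, so levels are compared within a list only. Each replicate had low and high summits in this chain, and the highest was at the start of ZK112.4 in replicate 1 and 2567 bp into the chain in replicate 2. Among its 4250 strongest peaks replicate 1 had 8 of the 10 summits and replicate 2 had 9.

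The chain at *daf-5* ran over 14885 bp, the widest extent of any chain. *daf-5* encodes a Ski/Sno-family protein of the dauer TGF-beta pathway. Its 9 summits, 8 in introns and 1 in a promoter, had optimal signals of 40.7, 87.6, 46.3, 229.8, 52.3, 83.2, 37.8, 42.1 and 47.3. The strongest was the highest of the chain in both replicates, with a signal of 166.1 in replicate 1 and 76.5 in replicate 2. A summit 8580 bp into the chain ranked 8960 in the list of replicate 1, with a signal of 10.5. In the list of replicate 2 it ranked 354, with 65.1. The strongest summit of this chain was thus shared and a weaker one was not.

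Other chains lay mostly or wholly in the introns of long genes. T28B11.1, a gene of 20263 bp on the minus strand, held 7 summits. The first along the chromosome was the strongest, at 260.3 in the optimal list, 195.7 in replicate 1 and 72.9 in replicate 2. This summit lay inside the gene, nearer its end than its outermost start, and was classed as promoter through an internal transcript start. *mbl-1*, which encodes the Muscleblind splicing factor, held 7 summits of optimal signal 33.4 to 96.3. *mbl-1* had 12 optimal summits in its window of 31695 bp plus the upstream part, of which 10 were chained. *pqn-41*, whose polyglutamine protein takes part in linker cell death, held 6 intronic summits of 43.2 to 277.3. The strongest of them, whose sequence with 2 composite sites is printed above, had a signal of 218.8 in replicate 1 and 64.6 in replicate 2. For each of the *pqn-41* gaps of 202 and 214 bp, in at least 1 replicate the strongest summit within 200 bp was the same for both neighbours.

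Among the other chains of most summits, genes gave less of a frame. The chain of 8 around *mdl-1* had 6 intergenic summits and its strongest, of 131.1, in the *mdl-1* promoter. On chromosome X, 7 summits ran for 10841 bp away from the start of F57G12.1, and only the first, at 159.3, was in its window. A chain of 6 at W06H8.6 had 4 summits in that window. A chain of 6 on chromosome III began in an intron of *mvk-1*, which encodes mevalonate kinase, at 141.5, and ended near *wht-7*. Between *snt-1*, which encodes synaptotagmin, and *egl-27*, which encodes an MTA-family chromatin protein, 6 summits lay in no protein-coding window. Their optimal signals were 44.7, 224.9, 44.9, 61.8, 79.1 and 55.2. The strongest of these had 112.5 in replicate 1 and 116.3 in replicate 2, the highest of the chain in both.

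**Figure D3:**
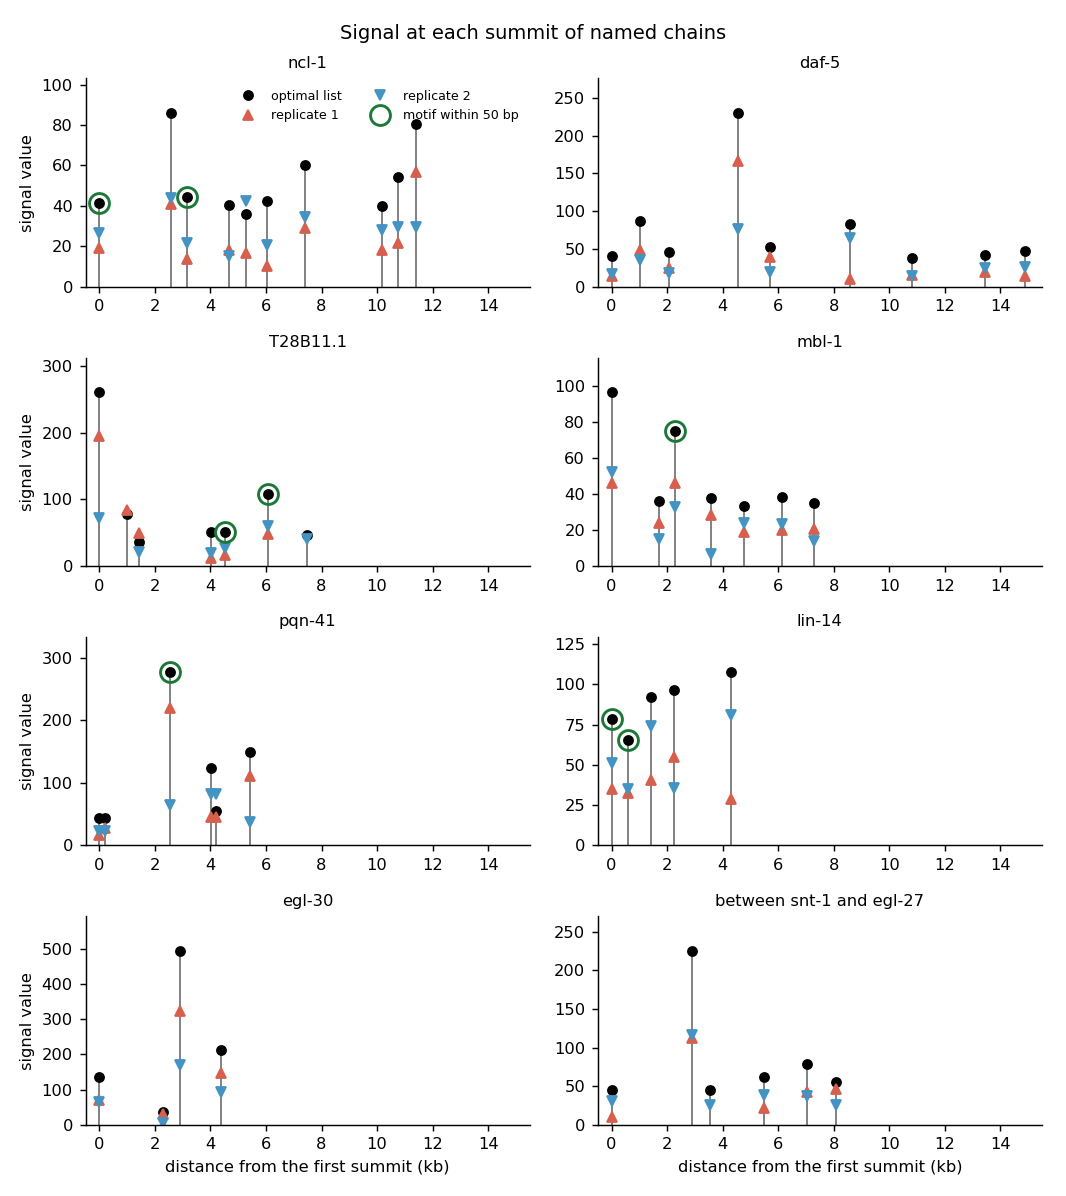
Peak signal (y axis, in the peak caller's units of each list) at each summit of 8 chains, by distance from the first summit of the chain (x axis, kb). Black points are the optimal list, red and blue triangles the replicates' own lists, and green circles mark summits with TGATNNAT within 50 bp. Most chains have 1 or 2 tall summits among lower ones, and the lin-14 chain is the most even of those plotted, from 65.7 to 107.8.

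The strongest chained summit was the second strongest of the whole list. It lay 63 bp before the start of *egl-30*, the gene of the Gq alpha subunit, with a signal of 492.9 in the optimal list, 324.2 in replicate 1 and 168.5 in replicate 2. The same chain of 4 ranged down to 36.0 at *rpl-27*, a ratio of 13.7 and the widest of all chains. The next strongest, of 337.9, lay 28 bp from the start of *cdk-7*, the kinase of transcription factor TFIIH, in a chain with Y39G10AR.11. It had 155.7 in replicate 1 and 186.1 in replicate 2. After the *pqn-41* summit came an intergenic one of 271.9, in a chain of 4 beyond the end of C30E1.4 on chromosome X, whose first summit, of 70.1, lay at a tRNA gene. That strongest intergenic summit reached 154.0 in replicate 1 and 112.6 in replicate 2. The strongest T28B11.1 summit was the fifth.

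Chained and single summits had close signals. The median signal was 53.1 in chained, 53.0 in paired and 52.2 in single summits, and 25.9% of chained against 22.9% of single summits were among the 1000 strongest. The Wilson 95% intervals of these shares were 22.8 to 29.2% and 21.3 to 24.5%. All intervals given here cover the counting of peaks only. The summits of a chain are neighbours and not independent, and read depth is unknown. Inside a chain the strongest summit had 1.05 to 13.7 times the signal of the weakest, with a median of 2.15. The spans of 147 chains also held summits of the pooled list that were below the optimal list's lowest signal of 33.1, 366 in all.

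Chained summits had a lower share in promoters and a higher share in introns than single summits. Promoters were taken from 1000 bp before to 200 bp after the start of any transcript of a protein-coding gene. They held 36.0% of chained summits (interval 32.6 to 39.6%), 46.2% of paired and 57.5% of single ones (55.6 to 59.5%). Introns held 28.8% of chained summits (25.6 to 32.2%), 21.7% of paired and 15.2% of single ones (13.8 to 16.6%). The intergenic shares were closer, at 26.0%, 24.8% and 21.7%. The median distance to the nearest start was 1351 bp for chained, 912.5 bp for paired and 506 bp for single summits. The rule itself bears on these shares, since a chain spreads over more sequence than a promoter, and the difference was not tested.

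**Figure D4:**
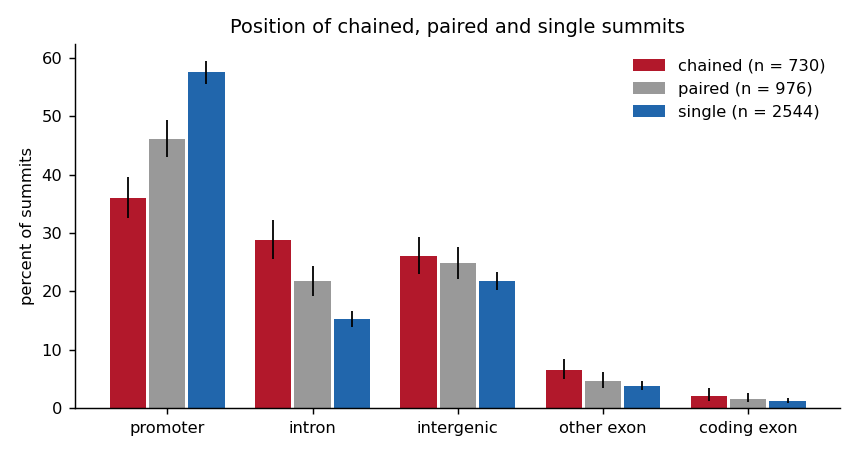
Percent of chained (red), paired (grey) and single (blue) summits (y axis) in each of 5 positions (x axis), with 95% Wilson intervals. From single to chained summits the promoter share falls from 57.5 to 36.0% and the intron share rises from 15.2 to 28.8%.

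In each replicate's own 4250 strongest peaks the order was the same. Promoters held 38.2% of chained and 52.1% of single summits in replicate 1, and 36.9% and 56.9% in replicate 2. Introns held 29.0% and 15.7% in replicate 1, and 26.7% and 16.3% in replicate 2. In chains of at least 4 summits, 28.2% of the summits were in promoters and 37.4% in introns.

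Most chains nevertheless touched a promoter. At least 1 promoter summit was in 157 of the 201 chains, 18 chains had promoter summits only, 15 had intron summits only and 11 were wholly intergenic. In the 139 chains with both promoter and other summits, 40.1% of the summits were in promoters, and the strongest summit was a promoter one in 72 chains, or 51.8%.

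Chromosome X held 21.5% of chained summits (18.7 to 24.6%), 23.8% of paired and 22.9% of single ones. The share of chained summits on X was 21.6% in replicate 1 and 16.8% in replicate 2. Chains were spread at 2.52 per Mb on chromosome I, 2.29 on II, 2.47 on III, 1.37 on IV, 1.34 on V and 2.37 on X. Of 3 equal parts of each chromosome, the middle held 46.3% of chained summits, against 38.3% of paired and 37.4% of single ones.

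Few chained summits lay at tRNA genes or at genes for snoRNAs, which guide modification of other RNAs in the nucleolus. Within 200 bp of a tRNA gene were 11 chained summits, or 1.51% (0.843 to 2.68%), against 4.72% of single ones (3.96 to 5.61%). For snoRNA genes the shares were 0.822% (0.377 to 1.78%) and 2.59% (2.04 to 3.29%). A long intergenic noncoding RNA gene (lincRNA) was near 10 chained summits, or 1.37%, and 0.432% of single ones. All 3 summits of a chain on chromosome II between *cex-2* and *klp-3* lay in or near *linc-110*, with signals of 58.3, 111.1 and 36.8.

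MicroRNA genes had 4 chained summits within 200 bp, or 0.548% (0.213 to 1.40%), and 3 single ones, or 0.118% (0.0401 to 0.346%). A summit of signal 50.02 was near *mir-48*, a let-7 family microRNA of developmental timing, as the first of 3 summits in a chain ending 3510 bp from *unc-39*. Its signal was 20.1 in replicate 1 and 31.9 in replicate 2. The others were 2 summits at *mir-8209*, only 244 bp apart, and 1 at *mir-8192*. The shares rest on 4 and 3 summits, and their difference was not tested.

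The composite motif was present at a minority of chained summits, and most chains lacked it. TGATNNAT on either strand lay fully within 50 bases of the summit at 76 of 730 chained summits, or 10.4% (8.40 to 12.8%), at 9.12% of paired and 8.41% of single ones (7.40 to 9.55%). Of 992797 windows of the same length tiling the genome, 7.88% had it, as did 7.67% of windows 500 bp to either side of chained summits. The share differed by position. Among chained summits it was 16.2% in introns, 13.2% in intergenic sequence and 4.56% in promoters. Among single summits it was 14.0%, 10.1% and 5.74%. Of 29304 windows 100 to 200 bp upstream of protein-coding starts, a narrower stretch than the promoter class, 8.35% had the motif. No share is given here for intron or intergenic windows of the genome, so those shares have no background of their own class. In the replicates' own lists the chained share was 7.24% in replicate 1 and 10.7% in replicate 2. The single shares there were 5.75% and 10.1%.

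At least 1 motif-bearing summit was in 59 chains, or 29.4%, at least 2 in 16, and 3 in the chain at *sftd-3* and *cal-2* alone. This chain of 5 on chromosome II had the motif at summits of signal 60.1, 40.1 and 72.5. In replicate 1 these had 28.1, 26.3 and 40.6, and in replicate 2 they had 47.1, 26.3 and 32.8. The strongest summit of this chain, of 74.0, had no match, and neither did one of 47.3. Chains with 2 motif-bearing summits and the highest summed signal were those of T28B11.1, *ncl-1*, *lin-14* and of *ulp-4* with *ire-1*, which encode a SUMO protease and the stress-sensing kinase of the endoplasmic reticulum.

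Among the 16 forms of the site, tgatggat was the most frequent in chains, with 19 of 86 sites, or 22.1%, against 20 of 238 sites, or 8.40%, at single summits. At single summits tgattgat led, with 49 sites or 20.6%, and it made up 15.1% in chains. Both sites of the *lin-14* chain, 1 of them printed above, and the printed T28B11.1 site have the form tgatggat, as does the first of the *pqn-41* pair. The forms were compared after their counts were seen. Around 1 summit of *zag-1* there were 3 matches.

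Some repeated letters were more frequent around summits of every kind than over the genome. The letters GAGAGA, searched on both strands after the sequences had been seen, lay in 29.5% of chained, 27.6% of paired and 28.1% of single windows, against 5.18% of all genome windows. CGCGCG, present in the *pqn-41* and *mbl-1* sequences above, lay in 4.93%, 5.94% and 6.25%, against 0.543%. GC content had a median of 48.5% in chained and in single windows, where the genome has 35.4%. At least 1 summit with GAGAGA was in 143 of the 201 chains. A match is a description of letters and does not show what bound there.

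In 15 lists of genes by function or family, 15 genes were hosts. The share of hosts over all protein-coding genes was 0.531%, at a median length of 2027 bp, and the median of each list with a host was longer. These medians were 6913 bp for heterochronic, 7037 bp for axon guidance and migration, 7359.5 bp for neuronal and synaptic, 5698 bp for body wall muscle, 4029 bp for RNA-binding, 5226 bp for signalling, 4889 bp for homeobox and 2309 bp for nuclear hormone receptor genes. Shares of hosts therefore cannot be told apart from gene length. Of the 15 hosts, 2 were among the 16 heterochronic genes, which time larval development. *lin-14*, the transcription factor that sets the earliest larval fates, had 10 optimal summits, 8 of them in chains. The chain at its start had 5 summits, of optimal signal 78.8, 65.7, 92.3, 96.3 and 107.8. Their values were 35.2, 32.7, 40.4, 54.9 and 28.9 in replicate 1 and 51.0, 35.3, 74.0, 36.0 and 80.7 in replicate 2. All 5 were among the strongest 4250 in both replicates, and each replicate ranked another summit highest. *lin-42*, the worm's Period homolog, had 3 summits of 99.9, 46.5 and 85.4, and the middle one had 46.0 in replicate 1 and 10.3 in replicate 2.

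A further 3 of 53 axon guidance and cell migration genes were hosts. *cam-1*, a Ror-family receptor tyrosine kinase, had 4 summits of 94.9, 39.7, 50.7 and 125.4, and the first 2 held the composite motif. *unc-14*, whose RUN-domain protein binds the kinase UNC-51, had 4 of a chain of 5, with the highest, of 114.8, at its start. *unc-33*, the CRMP homolog, had 3 weak summits of 36.6 to 41.1. The *cam-1* chain had 3 summits among the strongest of replicate 1 and 4 in replicate 2. No *unc-33* summit was among the 4250 strongest of both.

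Of 42 pan-neuronal and synaptic genes, *egl-30* and *maco-1*, which encodes macoilin, were hosts. *maco-1* had 3 of a chain of 4, with 85.0, 46.3 and 35.5, of which the 2 nearest its start lay 205 bp apart. In each replicate these 2 had the same strongest summit within 200 bp. Of 38 body wall muscle genes, *unc-52*, which encodes perlecan, was the only host, with 3 intronic summits of 33.7 to 39.5. None of these was among the strongest of replicate 1 and 1 was in replicate 2. Both *ncl-1* and *mbl-1* come from the list of RNA-binding regulators, of which 45 were in the annotation.

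Among 55 Wnt, TGF-beta, Notch and EGF genes the hosts were *daf-5*, *sel-8* and *lon-2*. *sel-8*, a coactivator of Notch signalling, had 4 intronic summits of 50.8, 85.0, 57.5 and 41.6, all 4 among the strongest of replicate 1 and 3 in replicate 2. *lon-2*, a glypican that limits BMP signalling, had 3 of 37.1 to 45.3. Of 35 homeobox genes outside the ceh- names, only *zag-1*, the ZEB homolog, was a host. Its 3 summits of 34.2 to 39.2 were among the strongest of replicate 1 and absent from those of replicate 2. *nhr-3* was the only host among 269 nuclear hormone receptor genes, with summits of 82.8, 41.3 and 113.8 in its window.

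No gene had 3 summits of a chain among the 63 ceh- homeobox genes, the 44 potassium and calcium channel genes of the list used, 78 cytosolic ribosomal protein genes, 156 collagen genes, 1116 chemoreceptor genes, 102 neuropeptide genes or 33 proteasome genes. That channel list is not complete: *twk-48*, a TWK-family potassium channel gene outside it, was a host with 3 summits of a chain. The listed channel genes are long, with a median of 12358 bp, and 12 of them had an optimal summit. Of the ribosomal protein genes, which are short, 72 had an optimal summit and 4 a chained one. These shares stand beside 0.531% over all protein-coding genes and were not tested.

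The replicates recovered chained and single summits to a like extent. Within 200 bp of an optimal summit, the 4250 strongest peaks of replicate 1 had a summit for 74.1% of chained and 72.8% of single ones. In replicate 2 the shares were 80.7% and 80.0%, and 58.5% and 55.8% were recovered in both. The optimal list is drawn from both replicates, so recovery is not independent of it. The pooled list had 4250 peaks at or above the lowest optimal signal, as many as the optimal list itself. In the whole relaxed lists, 41 chained summits had no replicate 1 summit within 200 bp and 7 had no replicate 2 summit. Of chained summits, 14 had the same strongest replicate 1 summit within 200 bp as another, and 22 the same strongest replicate 2 summit.

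At least 3 summits were among the strongest peaks of replicate 1 in 108 chains, of replicate 2 in 136 and of each in 79, or 39.3%. Against the whole relaxed lists of the replicates the last share was 87.1%. Chained by the same rule, replicate 1's own list gave 220 chains with 815 summits and replicate 2's gave 215 with 786. Replicate 1's chains overlapped 110 of the 201 chains, or 54.7%, which was 50% of its own. Replicate 2's overlapped 134, or 66.7%, which was 62.3% of its own. The number and sizes of chains were thus alike between lists, and the chains themselves were shared in part.

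**Figure D5:**
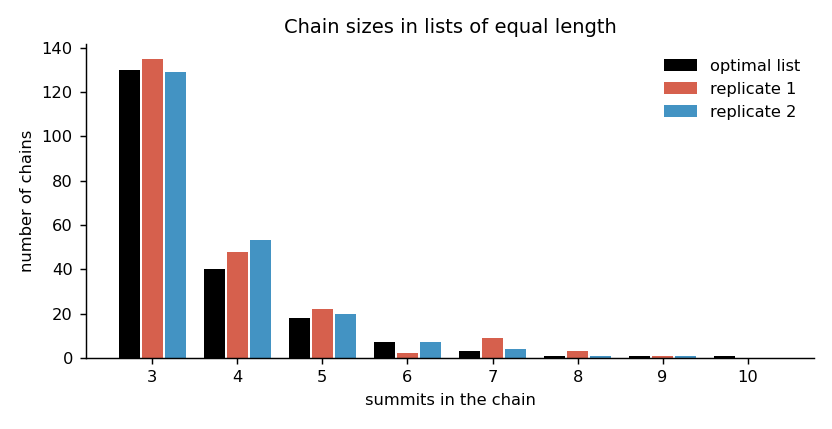
Number of chains (y axis) by the number of summits in them (x axis) in the optimal list (black) and in the 4250 strongest peaks of replicate 1 (red) and of replicate 2 (blue). All 3 lists have 129 to 135 chains of 3 summits and few above 6.

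The order of summits inside a chain also varied between replicates. In 157 chains every summit had a counterpart within 200 bp in both replicates' whole lists. The same summit was the strongest in both replicates in 77 of these, or 49.0%. Across 682 chained summits with a counterpart in both, Spearman's rho between the replicates' signals was 0.29, and across 2415 single summits it was 0.28. These points come from 2 libraries and a shared control, and they were selected on a pooled signal, so the values describe these lists only.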

How the data were processed

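ChIP-seq peak lists of 2 biological replicates were used. As the deposited text indexes state, the authors made a relaxed list for each replicate and for both pooled against the same control alignments, and thresholded an optimal list for reproducibility. Which aligner, caller, settings and threshold were used is not given in the sources used here. Each peak's signal is the authors' deposited value, on a scale of its own in each list. Read depth is unknown.

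Positions are 1-based on ce11. Genes are from Ensembl release 115. Summits were chained at 3000 bp. Classes were assigned in the order promoter, UTR (5′ before 3′), coding exon, intron, exon of another gene type and intergenic. Python 3.11.15, numpy 2.4.6, pandas 2.3.3 and scipy 1.17.1 were used, and the code was tested on simulated lists. Intervals are Wilson 95%. No test was made, since 1 group leaves no contrast between samples.

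The chains and gene lists were chosen with earlier results of these data known. Named are the 10 chains with most summits, those of the 5 strongest chained summits, the 5 with most motif-bearing summits, the 3 tightest and 3 widest, those nearest the distance limit, and every listed gene with 3 or more summits of a chain. Other named genes were chosen after their values were seen. Shown sequences are motif-bearing summits of the chains with most summits or most motif-bearing summits, highest signal first, at most 6, 1 per chain and none from chromosome I. Of the gene list entries, 2 RNA-binding and 1 channel gene had no match in the annotation.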

Additional observations from a re-analysis of the deposited data

How the results depend on the processing

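The chaining distance and the number of peaks set how many chains there were. At 1000, 2000 and 5000 bp there were 28, 122 and 318 chains with 87, 429 and 1195 summits, or 2.05, 10.1 and 28.1% of all. Asking for 4 summits left 71 chains with 340 summits (8.0%), and the 2000 strongest peaks gave 40 with 131 (6.55%). Peak midpoints gave 201 chains and the ce10 list 200. Without replicate 1 or replicate 2 there were 215 or 220 chains with 786 or 815 summits, 18.5 to 19.2% of the list. The promoter share of chained summits stayed below that of single summits in all 10 alternatives that changed either share. The intron and motif shares stayed above in all 9 such alternatives each. Of the alternatives compared that changed their shares, the order turned in 3 of 9 on X and in 4 of 11 for recovery.

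In the order 1000, 5000 bp and 4 summits, chained promoter shares were 41.4, 37.9 and 28.2%. Promoters of 500 to 100 bp took 23.6% of chained and 47.6% of single summits, leaving 32.3 and 17.5% to introns. Without a replicate, chained promoter shares were 36.9 to 38.2%, single ones 52.1 to 56.9%, chained intron shares 26.7 to 29.0% and single ones 15.7 to 16.3%. At 1000 bp, introns held 19.5% of chained and 18.4% of single summits and promoters 52.0% of single ones; at 2000 and 5000 bp, single intron shares were 16.1 and 13.2%. Chains of 4 had 37.4% in introns. The 2000 strongest peaks had 31.3% of chained and 13.6% of single summits in introns and 25.2% of chained ones on X. Without a replicate, the X share of chained summits was 16.8 to 21.6%. Motif windows of 100 bp each side gave 15.8% of chained and 14.6% of single summits. Leaving out a replicate gave 7.24 to 10.7% of chained and 5.75 to 10.1% of single ones.

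Chains with 3 summits in 1 gene made up 60.7% at 1000 bp, 43.4% at 5000 bp, 71.8% for 4 summits, 28.4% in gene bodies alone, and 54.0 to 64.1% without a replicate. Chained recovery in both replicates was 50% within 100 bp. Against whole relaxed lists it was 93.4% for chained and 94.9% for single summits, and 87.1% of chains had 3 in each. Without a replicate these shares were 74.1 to 80.7%, 72.8 to 80.0% and 53.7 to 67.7%. The merging of summits under 350 bp apart was chosen after seeing the data, and left 16.7% of summits in chains. The cause of these shifts was not tested. No paired analysis was possible because there is a single group.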
